A study of Mus musculus with 15 samples.

Results

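Krüppel-like factors (KLFs) are zinc-finger transcription factors that bind CACCC-type and GC-rich DNA, and several of them switch fat cell formation on or off. The members described here are the 10 genes Klf2, Klf3, Klf4, Klf5, Klf6, Klf7, Klf9, Klf10, Klf13 and Klf15, found by their Entrez Gene numbers among the 26301 gene numbers with deposited counts. They were chosen by name, for their place in adipogenesis, with earlier results of these data known. RNA-seq counts from 3T3-L1 cells, a mouse preadipocyte line, covered 15 libraries on day 2 after induction with insulin (1.67 uM), the glucocorticoid dexamethasone (1 uM) and the phosphodiesterase inhibitor IBMX (115 ug/mL). The knockdown set held control (sh-Empty) cells and cells with a hairpin against Jmjd1a (sh-Jmjd1a), with 3 libraries each. In the rescue set, sh-Jmjd1a cells carried LacZ as a control, wild-type JMJD1A(WT) or JMJD1A(Mut), a mutant deficient in iron binding, again with 3 libraries each. JMJD1A, the product of Kdm3a, removes methyl groups from lysine 9 of histone H3, and iron is its cofactor. The lines were infected with retrovirus and selected with antibiotics, all rescue cells carried the hairpin and a second virus, and the sources do not say whether the replicates came from separate infections. The p-values therefore measure the spread between these libraries, which may be technical.

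In textbook accounts of adipogenesis the family works as a relay. Klf4 is induced early by cAMP and acts with Egr2 (Krox20) on Cebpb, and Klf5 is then induced by C/EBPβ and C/EBPδ and acts with them on Pparg. Klf6 represses the preadipocyte gene Dlk1, Klf9 and Klf15 promote later steps, and Klf2, Klf3 and Klf7 hold differentiation back. Klf15 is also a classical glucocorticoid-induced gene.

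Promoters of 300 bases (250 before and 50 after the start, RefSeq, build GRCm38.p6) were matched for 8 of the 10 genes, with none for Klf5 and Klf10. Those of the 4 genes that differed with JMJD1A(WT) in the rescue set are printed 5′ to 3′ on the gene's strand, with CACCC (the KLF box) and TGACG (the core of the cAMP response element) in capitals on either strand, where they read GGGTG and CGTCA. The windows lie at chr4:55532426-55532725 on the minus strand for Klf4, chr8:72318812-72319111 on the plus strand for Klf2, chr19:23140976-23141275 on the plus strand for Klf9 and chr6:90462326-90462625 on the plus strand for Klf15.
Klf4: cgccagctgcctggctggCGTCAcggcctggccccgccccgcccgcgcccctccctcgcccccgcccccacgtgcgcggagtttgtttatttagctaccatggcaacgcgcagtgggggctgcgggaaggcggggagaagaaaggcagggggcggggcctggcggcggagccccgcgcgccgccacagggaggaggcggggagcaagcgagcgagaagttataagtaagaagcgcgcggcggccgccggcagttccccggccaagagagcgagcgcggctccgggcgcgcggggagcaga
Klf2: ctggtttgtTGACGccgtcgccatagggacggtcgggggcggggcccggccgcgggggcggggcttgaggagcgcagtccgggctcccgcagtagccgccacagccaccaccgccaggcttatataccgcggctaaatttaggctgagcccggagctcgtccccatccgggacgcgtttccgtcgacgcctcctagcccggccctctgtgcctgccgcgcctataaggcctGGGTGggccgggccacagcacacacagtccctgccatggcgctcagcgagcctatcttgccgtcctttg
Klf9: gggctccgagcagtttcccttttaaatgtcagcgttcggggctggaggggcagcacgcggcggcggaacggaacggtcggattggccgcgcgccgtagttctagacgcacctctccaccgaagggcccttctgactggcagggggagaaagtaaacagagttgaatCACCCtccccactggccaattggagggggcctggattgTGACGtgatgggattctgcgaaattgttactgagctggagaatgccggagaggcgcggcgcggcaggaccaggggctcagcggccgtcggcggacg
Klf15: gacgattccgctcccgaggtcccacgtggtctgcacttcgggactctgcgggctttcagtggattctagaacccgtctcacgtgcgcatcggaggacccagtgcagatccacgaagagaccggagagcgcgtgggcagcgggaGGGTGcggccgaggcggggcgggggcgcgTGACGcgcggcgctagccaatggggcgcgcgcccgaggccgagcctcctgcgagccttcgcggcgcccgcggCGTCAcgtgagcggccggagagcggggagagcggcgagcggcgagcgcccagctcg
The CACCC letters occurred in 6 of the 8 promoters, including those of Klf2, Klf9 and Klf15 but not that of Klf4, and in 57.5% of all 32851 promoters of this length. TGACG occurred in 6 of the 8, with 2 matches in Klf15, and in 20.8% of all promoters. The GC box GGGCGG occurred in 7 of the 8 and in 35.7% of all. The TATA box TATAAA (13.6% of all promoters) and AGAACA, the core of the glucocorticoid response element (19.0%), matched none of the 8, in these windows. GC content was 58.3% to 76.7% in the 8 promoters against a median of 52.7%. Both strands were searched, and matches of different motifs may overlap. A match describes the letters alone, and whether these motifs had a part in the differences was not tested.

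The unit of a level is CPM, the counts of a gene per 1000000 counts of its library, normalised by the TMM method within each set, so levels are set side by side only inside a set. Total counts ran from 11437058 to 25523148 with a median of 12916162, the highest in JMJD1A(WT) replicate 3. Differences are log2 fold changes with 95% intervals, tested by the quasi-likelihood method of edgeR. P-values were adjusted by Benjamini-Hochberg over every gene of the fit, and a gene is called at an adjusted p under 0.05. Kdm3a stood at 177 ± 7.31 CPM in sh-Empty and 132 ± 5.77 CPM in sh-Jmjd1a cells (SD, n = 3), so the hairpin left most of the transcript. It was 119 ± 2.62 CPM with LacZ, 1690 ± 69.0 with JMJD1A(WT) and 2197 ± 92.2 with JMJD1A(Mut) (SD, n = 3). Summed over 5 adipocyte markers (Adipoq, Fabp4, Plin1, Cidec and Lpl), the level was 4861 to 4939 CPM in sh-Empty, 2509 to 2635 in sh-Jmjd1a, 3145 to 3235 with LacZ, 3545 to 3873 with JMJD1A(WT) and 2473 to 2584 with JMJD1A(Mut). Lpl made up most of this sum, with a mean of 3945 CPM in sh-Empty and 2355 in sh-Jmjd1a. The means of the others changed more on knockdown: Adipoq from 53.1 to 5.21 CPM, Fabp4 from 560 to 153, Plin1 from 180 to 34.9 and Cidec from 167 to 28.0. All 5 markers were called in each comparison, higher with JMJD1A(WT) over LacZ and lower in the other comparisons. Over all genes tested, 22.3% were called higher and 23.9% lower on knockdown, and 4.98% and 4.52% with JMJD1A(WT) against LacZ. With the mutant these shares were 12.1% and 11.7% against JMJD1A(WT), and 4.78% and 4.46% against LacZ. Summed over 7 mesenchymal markers, including Col1a1, Vim and Pdgfra, the level was 11806 to 11968 CPM in sh-Empty and 20527 to 21806 in sh-Jmjd1a, and in the rescue set it was 24575 to 26516. On knockdown 6 of the 7 were higher and Pdgfra was not called, and with JMJD1A(WT) against LacZ 2 were higher and 1 lower. Col3a1, Col1a2 and Col1a1 made up most of the knockdown set's sum, with means of 8703, 6068 and 3122 CPM in sh-Jmjd1a. In sh-Empty their means were 4794, 3033 and 1168 CPM. Whether these shifts in the state of the cells had a part in the KLF values was not tested, and in bulk libraries fewer cells of a type and less RNA per cell cannot be told apart. Leukocyte, endothelial and epithelial marker lists, of 3, 3 and 2 genes, summed to at most 3.44, 0.656 and 0.283 CPM in any library. Of the muscle list, Myod1 and Myog had no count in any library, and Des was 15.4 ± 1.17 CPM with JMJD1A(WT) against 4.22 ± 0.777 with LacZ (SD, n = 3).

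All 10 genes passed the filter on low counts in both sets. Klf15 would not have done so without sh-Empty and JMJD1A(WT), the groups where it was high. With no filter its calls did not change. Levels of different genes are comparable only per length, and per kb of exon the highest in sh-Empty cells was Klf9 with 27.3 ± 2.10 CPM per kb (SD, n = 3). Klf3 (13.4 ± 0.772), Klf5 (12.9 ± 0.870), Klf6 (11.4 ± 0.312), Klf4 (10.8 ± 0.519), Klf10 (10.7 ± 0.510) and Klf13 (8.48 ± 0.231) followed. Klf2 had 3.33 ± 0.641, Klf15 0.681 ± 0.131 and Klf7 0.250 ± 0.0261 CPM per kb. The neighbours Klf3 and Klf5, and Klf4 and Klf10, lay within each other's SD. In sh-Jmjd1a cells Klf4 came second, at 18.9 ± 1.79 CPM per kb behind 35.2 ± 2.00 of Klf9, and Klf15 was the lowest at 0.152 ± 0.0527. In the rescue set Klf9 again stood highest, at 29.2 to 32.8 CPM per kb over the group means, and Klf15 moved from 0.960 ± 0.327 with JMJD1A(WT) to 0.108 ± 0.0829 with JMJD1A(Mut). Exon lengths are unions from GENCODE M1 and may differ from those the reads were counted over.

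**Figure D1:**
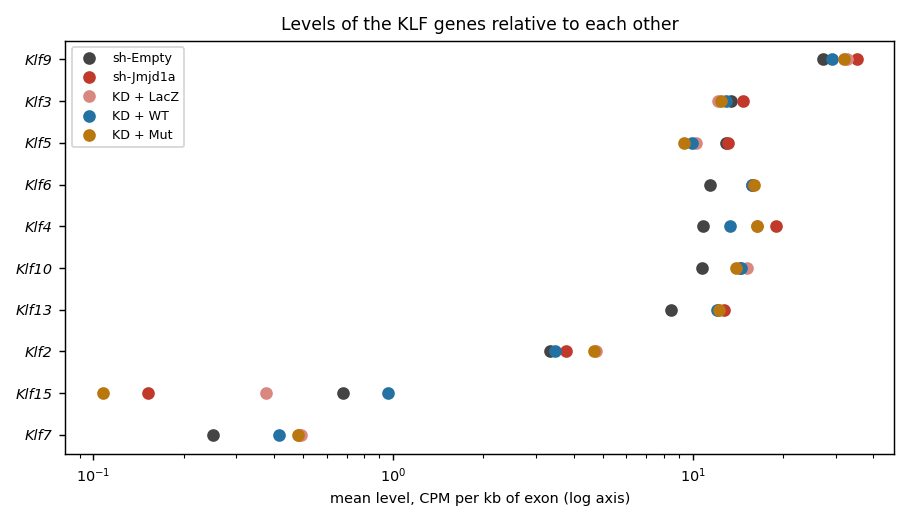
Mean level of each gene in CPM per kb of exon (horizontal, log axis) in the 5 groups, 1 colour per group and each point the mean of 3 libraries. Klf9 is highest in every group, and Klf7 and Klf15 are the lowest.

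On knockdown, 6 of the 10 genes were higher and 1 was lower. Klf4, Klf6, Klf7, Klf9, Klf10 and Klf13 rose by 0.37 to 0.94 on the log2 scale, and Klf15 fell by 2.14. Of all 12272 genes tested, 22.3% were called higher and 23.9% lower. The median log2 fold change of the 10 genes was 0.40 against -0.00 over all genes tested. Klf2, Klf3 and Klf5 did not pass.

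Klf4 (mm9 chromosome 4, 55540013 to 55545347, minus strand), the early activator, stood at 34.9, 32.8 and 31.8 CPM in the sh-Empty libraries and at 63.2, 58.6 and 52.2 CPM in the sh-Jmjd1a libraries. Every knockdown library lay above every control library. The log2 fold change was 0.81 (95% interval 0.65 to 0.97, adjusted p = 8.92e-10). Klf5 (chromosome 14, 99697910 to 99712624, plus strand), which follows Klf4 in the relay, had 23.7, 22.0 and 20.7 CPM in sh-Empty and 24.2, 20.9 and 22.5 CPM in sh-Jmjd1a cells. The groups overlapped, and the interval of the log2 difference was -0.17 to 0.23 (adjusted p = 0.833 by edgeR). Klf6 (chromosome 13, 5860735 to 5869639, plus strand), the repressor of Dlk1, had 48.5, 49.3 and 46.7 CPM in control and 60.4, 67.3 and 71.6 CPM in knockdown libraries. The groups lay apart, with a log2 fold change of 0.47 (0.33 to 0.61, adjusted p = 1.89e-06).

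Among the genes that promote later steps, Klf9 (chromosome 19, 23215716 to 23241401, plus strand) had 86.9, 96.6 and 83.4 CPM in sh-Empty and 117, 107 and 120 CPM in sh-Jmjd1a libraries. The groups did not overlap, and the log2 fold change was 0.37 (0.25 to 0.49, adjusted p = 5.97e-06). Klf15 (chromosome 6, 90412570 to 90425232, plus strand), an activator of the glucose transporter gene Slc2a4, moved the other way. Its counts were low, 16, 24 and 26 in the control and 5, 6 and 3 in the knockdown libraries, or 1.41, 2.07 and 1.68 against 0.436, 0.484 and 0.233 CPM. Every knockdown library was below every control library, although few reads lie behind each value. The gene passed the filter only because of the sh-Empty libraries, so a fall was the direction that the filter favoured. Klf15 fell by 2.14 on the log2 scale (-3.10 to -1.18, adjusted p = 0.000390).

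Klf13 (chromosome 7, 71031237 to 71083801, minus strand), a close relative of Klf9, had 57.2, 56.5 and 54.2 CPM in control and 87.1, 84.8 and 79.5 CPM in knockdown libraries. The groups lay far apart, with a log2 fold change of 0.58 (0.46 to 0.71, adjusted p = 4.29e-09). Klf10 (chromosome 15, 38221219 to 38230464, minus strand), a TGF-β-inducible repressor, was 39.6 to 43.3 CPM in control and 53.9 to 56.2 CPM in knockdown libraries, without overlap. Its log2 fold change was 0.42 (0.28 to 0.56, adjusted p = 7.41e-06).

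Of the genes that hold differentiation back, only Klf7 (chromosome 1, 64076021 to 64168856, minus strand) passed on knockdown. It had 21, 23 and 35 counts in sh-Empty and 44, 53 and 48 counts in sh-Jmjd1a libraries, or 1.85 to 2.27 against 3.73 to 4.28 CPM. The groups did not overlap, and the log2 fold change was 0.94 (0.43 to 1.45, adjusted p = 0.00260). Klf7 overlaps the gene models Gm17427 and Gm13748 on the opposite strand, and since the strand setting of the counting is not given in the sources used here, reads of these genes could be shared. Klf2 (chromosome 8, 74842932 to 74845555, plus strand), a repressor of Pparg, had 6.87, 6.81 and 4.79 CPM in control and 7.41, 6.86 and 6.60 CPM in knockdown libraries. These overlapped, with an interval of -0.16 to 0.57 (adjusted p = 0.372 by edgeR). Klf3 (chromosome 5, 65194628 to 65221368, plus strand), which recruits CtBP corepressors, had 33.4 to 37.2 and 36.8 to 39.6 CPM, also overlapping (interval -0.03 to 0.29, adjusted p = 0.165). Each of the 7 calls held with any 1 library left out, and Klf15 could not be tested with a filter of 10 counts in every library.

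**Figure D2:**
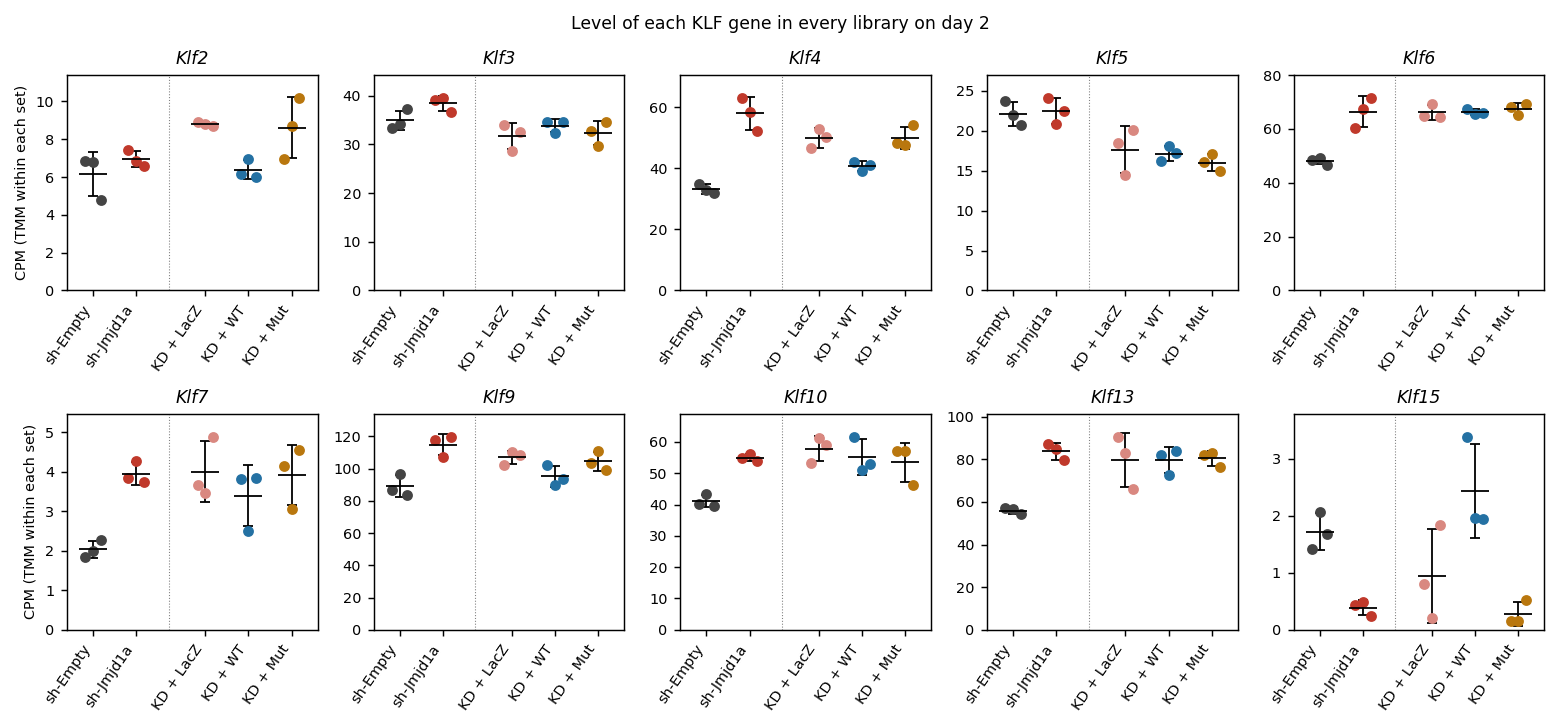
Level of each of the 10 KLF genes in CPM (vertical, from 0, TMM within each set) in every library, with the 3 libraries of a group as points and the mean and SD as bars. The dotted line divides the knockdown set from the rescue set. Klf4 is above all sh-Empty libraries in every sh-Jmjd1a library and is lower with WT than with LacZ or Mut, while Klf15 shows the opposite order.

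With JMJD1A(WT) against LacZ, 3 of the 10 genes, Klf2, Klf4 and Klf9, were lower and 1, Klf15, was higher. In this comparison 4.52% of all 12557 genes tested were called lower and 4.98% higher. The median log2 fold change of the 10 genes was -0.06 against -0.00 over all genes.

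Klf4 was at 46.7, 53.0 and 50.3 CPM with LacZ, 42.2, 39.2 and 40.9 CPM with JMJD1A(WT) and 48.3, 47.5 and 54.2 CPM with JMJD1A(Mut). The WT libraries lay below all of the other two groups, which overlapped each other. Against LacZ, JMJD1A(WT) gave a log2 fold change of -0.29 (-0.43 to -0.15, adjusted p = 0.00294). This call held with any 1 library left out and under every other setting tried.

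Klf2 was at 8.93, 8.78 and 8.70 CPM with LacZ, 6.17, 6.96 and 6.03 CPM with JMJD1A(WT) and 6.97, 8.68 and 10.2 CPM with JMJD1A(Mut). Its WT and LacZ libraries did not overlap, whereas the lowest Mut library lay just above the highest WT library. Its log2 fold change against LacZ was -0.48 (-0.79 to -0.17, adjusted p = 0.0360). It was no longer called without LacZ replicate 1 (-0.47), 2 (-0.48) or 3 (-0.49) and without JMJD1A(WT) replicate 1 (-0.47) or 3 (-0.43), nor with DESeq2 (adjusted p = 0.0730).

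Klf9 had 102, 110 and 108 CPM with LacZ and 102, 90.0 and 93.3 CPM with JMJD1A(WT). Replicate 1 of each group met at the same level, so the groups overlapped. The gene fell by 0.17 on the log2 scale (-0.28 to -0.06, adjusted p = 0.0348). This call went without LacZ replicate 2 (-0.15) or 3 (-0.16), without JMJD1A(WT) replicate 2 (-0.14) or 3 (-0.15) and with DESeq2 (adjusted p = 0.0648).

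Klf15 rose with JMJD1A(WT), from 12, 3 and 26 counts with LacZ to 46, 25 and 50 counts, or from 0.800, 0.212 and 1.84 CPM to 3.38, 1.95 and 1.94 CPM. The groups did not overlap, but LacZ replicate 3 reached almost to the lowest WT library. Without the WT libraries the gene would have failed the filter, so a rise was the direction favoured. The log2 fold change was 1.29 (0.51 to 2.07, adjusted p = 0.0245). Without LacZ replicate 3 it was 2.16 and remained called. It lost its call without LacZ replicate 1 (1.17) or 2 (0.83), without JMJD1A(WT) replicate 1 (1.03) and with DESeq2 (adjusted p = 0.0946).

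The other 6 genes did not pass. Klf6 was at 64.8, 69.4 and 64.3 CPM with LacZ and at 67.4, 65.4 and 65.9 CPM with JMJD1A(WT), overlapping, with an interval of -0.11 to 0.12 for the log2 difference. Klf13, at 65.9 to 90.5 and 72.6 to 83.9 CPM, had an interval of -0.20 to 0.21, and Klf10, at 53.3 to 61.2 and 51.1 to 61.6 CPM, one of -0.22 to 0.08. For Klf3 it was -0.06 to 0.26, for Klf5 -0.26 to 0.17 and for Klf7 -0.63 to 0.25. Klf7 rests on 32 to 99 counts per library here.

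With JMJD1A(Mut) against JMJD1A(WT), 2 of the 10 genes, Klf2 and Klf4, were higher and 1, Klf15, was lower, where 12.1% of all genes tested were higher and 11.7% lower. The median log2 fold change of the 10 was 0.02 against -0.00 over all genes. The JMJD1A(WT) libraries also enter the comparison with LacZ, so these calls are not separate evidence. Klf4 rose by 0.29 on the log2 scale (0.15 to 0.43, adjusted p = 0.00167), a call that held with any 1 library left out. Klf2 rose by 0.44 (0.12 to 0.77, adjusted p = 0.0366). That call was lost without JMJD1A(Mut) replicate 2 (0.43) or 3 (0.32), without JMJD1A(WT) replicate 1 (0.43) or 3 (0.39) and with DESeq2 (adjusted p = 0.0609). Klf15 had 2, 2 and 6 counts with JMJD1A(Mut), or 0.157, 0.146 and 0.514 CPM, every one far below the WT libraries. The filter, passed because of the WT libraries, favoured this direction too. Klf15 fell by 3.11 on the log2 scale (-4.22 to -2.00, adjusted p = 2.43e-05), with -3.87 to -2.80 when 1 library was left out. Klf9, at 103, 111 and 99.4 CPM with the mutant, overlapped the WT libraries and missed the threshold (log2 fold change 0.14, 0.03 to 0.25, adjusted p = 0.0583). It passed without LacZ replicate 1, JMJD1A(Mut) replicate 3 or JMJD1A(WT) replicate 1, at 0.14, 0.17 and 0.19.

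With JMJD1A(Mut) against LacZ, 0 of the 10 genes were called by edgeR or by DESeq2, and 1 of them, Klf15, had an unadjusted p under 0.05 in edgeR's test. In all 12557 genes tested, 4.46% were lower and 4.78% higher. For Klf4 the log2 difference was -0.00 with an interval of -0.14 to 0.14, and for Klf2 it was -0.04 with -0.35 to 0.27. Klf15 differed by -1.82 (-3.24 to -0.40, adjusted p = 0.104), with the 2 groups overlapping. Without LacZ replicate 2, which had 3 counts, it was called at -2.28 (adjusted p = 0.0225). The median log2 fold change of the 10 was -0.03 against 0.00 over all genes.

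The genes that rose on knockdown alone showed no call for the mutant in either direction. Klf6 was 65.1 to 69.3 CPM with JMJD1A(Mut), with intervals of -0.09 to 0.14 against JMJD1A(WT) and -0.09 to 0.15 against LacZ. Klf13, at 76.5 to 83.0 CPM, had -0.20 to 0.22 and -0.20 to 0.23, and Klf10, at 46.2 to 57.1 CPM, had -0.19 to 0.12 and -0.26 to 0.05. Klf7 spanned 3.06 to 4.54 CPM, with the widest intervals of these 4 genes, -0.32 to 0.61 and -0.51 to 0.42. The mutant, WT and LacZ libraries of all 4 overlapped. Klf3 (29.7 to 34.6 CPM, intervals -0.24 to 0.09 and -0.15 to 0.19) and Klf5 (intervals -0.32 to 0.14 and -0.37 to 0.10) were called in none of the 4 comparisons by edgeR or DESeq2, and neither had an unadjusted p under 0.05 by edgeR. The mutant level of Klf5 was 14.99 to 17.06 CPM.

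**Figure D3:**
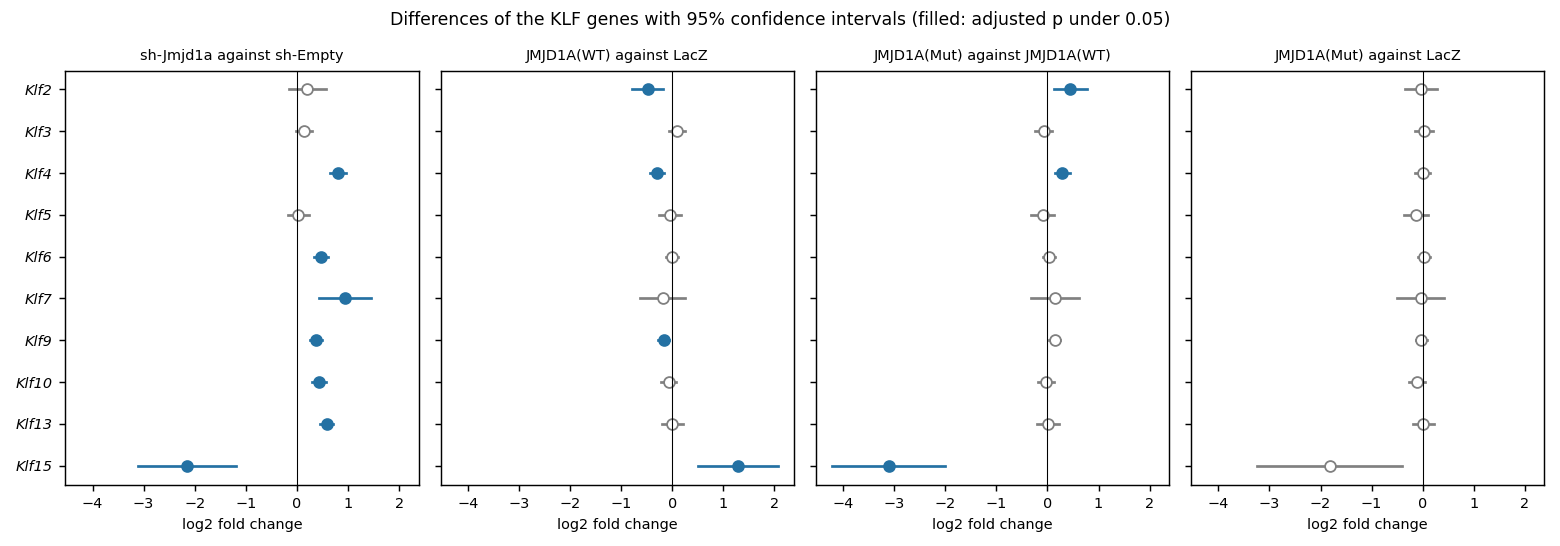
Log2 fold change (horizontal) of each KLF gene in the 4 comparisons, with 95% confidence intervals as lines. Filled points have an adjusted p under 0.05. On knockdown 6 filled points lie above 0 and that of Klf15 below it. With WT over LacZ, Klf2, Klf4 and Klf9 are filled below 0 and Klf15 above it, and with Mut against LacZ no point is filled.

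The knockdown and rescue comparisons share no library. If LacZ cells were like sh-Jmjd1a cells, a rescue that undid the knockdown in full would bring the 2 log2 fold changes to a sum of 0. That sum was tested as 1 contrast in a fit of all 15 libraries, a test added after the values were seen. It was above 0 for 5 of the 10 genes and below 0 for none, where 17% of the 12758 genes in that fit had a sum called higher and 15.7% lower. The 5 were Klf13 (0.60, 0.36 to 0.83), Klf4 (0.53, 0.32 to 0.74), Klf6 (0.48, 0.30 to 0.66), Klf10 (0.36, 0.15 to 0.58) and Klf9 (0.21, 0.05 to 0.38). The sum for Klf9 had an adjusted p of 0.0352 in this edgeR fit and was not called without any 1 of 7 libraries, at 0.16 to 0.22 (sh-Empty 1 or 3, sh-Jmjd1a 1 or 3, LacZ 1 or 3, or JMJD1A(WT) 1), and with DESeq2 (adjusted p = 0.0625). The other 4 held with any library left out. For Klf15 the sum was -0.85 with an interval of -2.28 to 0.58, too wide to tell a full from a partial return. Klf7 (0.76, 0.08 to 1.44, adjusted p = 0.0822) passed only without LacZ replicate 3 (0.92) or JMJD1A(WT) replicate 2 (0.89). Klf3 (0.24, 0.02 to 0.46, adjusted p = 0.0961 in the edgeR fit of all 15 libraries) did not pass. Nor did Klf2 (-0.27, -0.74 to 0.21) or Klf5 (-0.00, -0.30 to 0.29). JMJD1A(WT) cells carried 14.2 times the Kdm3a transcript of LacZ cells, so the dose cannot be told apart from the rescue itself in such a sum. Nor can a difference between the 2 sets, as all rescue cells also carried a second virus.

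**Figure D4:**
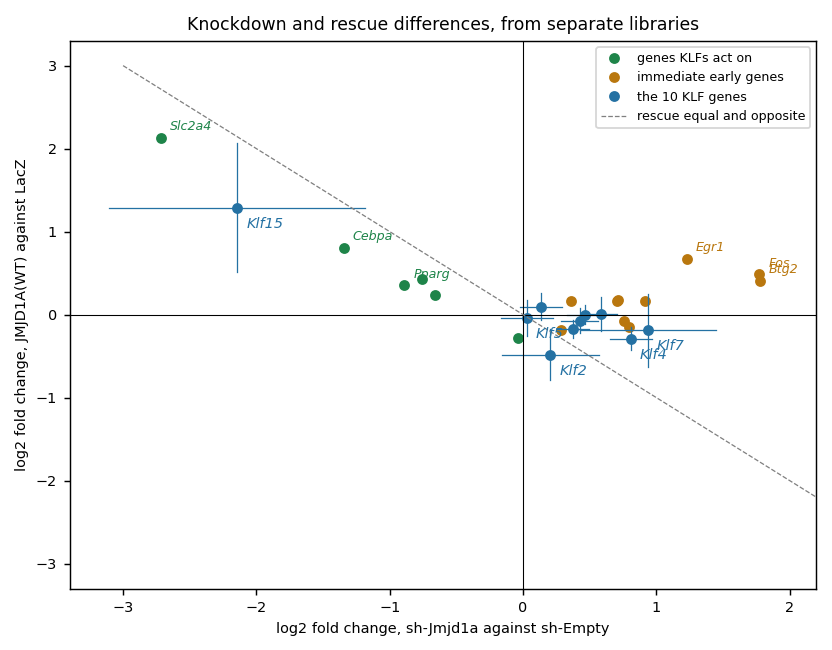
Log2 fold change on knockdown (horizontal) against that with JMJD1A(WT) over LacZ (vertical) for the KLF genes with 95% intervals (blue), the genes KLFs act on (green) and immediate early genes (orange). Points on the dashed line would be equal and opposite. Klf4 and most other KLF genes lie to the right of 0 and above the line, and Klf15 lies at the upper left with Slc2a4, Cebpa and Pparg.

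A list of 6 genes on which KLFs are known to act, chosen with earlier results known, was read beside Klf15. Of the 6 on the list, Pparg, Cebpa, Dlk1, Slc2a4 and Bcat2 were lower on knockdown, higher with JMJD1A(WT) over LacZ and lower with the mutant than with JMJD1A(WT). Klf15 had this order, and so did all 5 adipocyte markers, so it was not particular to genes on which KLFs act. The filter favoured this order for Klf15, which passed through sh-Empty and JMJD1A(WT), and its rescue call was lost with DESeq2. The share of all genes with this order was not counted. Pparg, Cebpa and Dlk1 were also lower with the mutant than with LacZ, where Klf15 was not called. Pparg, the master regulator of fat cell formation that Klf5 and Klf9 activate and Klf2 represses, had log2 fold changes of -0.89, 0.36 and -0.84 in these 3 comparisons. Cebpa, repressed by Klf3, had -1.35, 0.81 and -1.86. Dlk1, the target of Klf6 repression, was lower on knockdown (-0.76), in the libraries where Klf6 was higher. It rose by 0.43 with JMJD1A(WT), where Klf6 was not called. Slc2a4, the GLUT4 gene activated by Klf15, had 17 to 22 counts in sh-Empty and 1 to 4 in sh-Jmjd1a libraries. In the rescue set it had 4 to 7 with LacZ against 24 to 40 with JMJD1A(WT). It passed the filter on low counts through sh-Empty and JMJD1A(WT) alone, so the filter favoured the direction of its calls. Bcat2, an enzyme of branched-chain amino acid breakdown that Klf15 controls in muscle, had -0.66, 0.24 and -0.36, and its call in the rescue was lost with DESeq2. Cebpb, the target of Klf4, was called in no comparison by edgeR or DESeq2, and had an unadjusted p under 0.05 with the mutant against LacZ alone (log2 fold change -0.52). It was 393 to 467 CPM in sh-Empty and 289 to 560 CPM in sh-Jmjd1a libraries, so the knockdown libraries spread across the control range.

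Of the 5 genes upstream, Cebpd, which with Cebpb induces Klf5, was higher on knockdown (0.59), lower with JMJD1A(WT) than with LacZ (-0.19) and higher with the mutant than with JMJD1A(WT) (0.34). That is the order of calls that Klf4 had. Creb1, through which cAMP acts, rose on knockdown alone (0.29). Egr2, the partner of Klf4, rose with JMJD1A(WT) against LacZ (0.42), a call that was lost with DESeq2. Nr3c1, the glucocorticoid receptor gene, was called in no comparison by edgeR or DESeq2, and its log2 fold changes lay between -0.05 and -0.01.

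Klf4, Klf6 and Klf10 respond to serum as immediate early genes do, and a list of 11 other such genes, 10 of them tested, was read beside them. On knockdown 9 of the 10 were higher and none was lower, with Fos and Btg2 at 1.77 and Egr1 at 1.23 on the log2 scale. Of all genes tested, 22.3% were called higher and 23.9% lower on knockdown. With JMJD1A(WT) against LacZ, Egr1, Ier2 and Btg2 were higher (Egr1 by 0.68) and Jun was lower (-0.19), while Klf4 was lower. Over all genes the shares there were 4.98% higher and 4.52% lower. With DESeq2 the calls of Fosb on knockdown and of Ier2 with JMJD1A(WT) were lost. With the mutant against LacZ 8 of the 10 were higher, Fos by 1.18, where 4.78% of all genes tested were higher and 4.46% lower. The part of these genes' shifts in the KLF values was not tested. Of 7 glucocorticoid-induced genes, read beside Klf15, Zbtb16 alone was lower on knockdown (-0.75), higher with JMJD1A(WT) (0.63) and lower with the mutant against JMJD1A(WT) (-1.54). On knockdown Tsc22d3 (0.29), Per1 (0.36) and Dusp1 (0.34) were higher and Fkbp5 was lower (-0.10). In the rescue, Sgk1 (0.22) and Errfi1 (0.27) were higher beside Zbtb16. With the mutant the counts were 2 lower and 3 higher against JMJD1A(WT), where 11.7% of all genes were lower and 12.1% higher. Against LacZ they were 1 lower and 4 higher, where the shares were 4.46% and 4.78%. DESeq2 did not call Fkbp5 on knockdown, Per1 with the mutant against JMJD1A(WT) or Tsc22d3 with the mutant against LacZ.

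Of 16 further KLF and SP genes 7 passed the filter. For the counts below, 22.3% of all genes tested were called higher and 23.9% lower on knockdown. With the mutant against JMJD1A(WT) these shares were 12.1% and 11.7%. They were 4.98% and 4.52% with JMJD1A(WT) against LacZ, and 4.78% and 4.46% with the mutant against LacZ. On knockdown Klf11 (0.94), Sp1 (0.28) and Sp4 (0.47) were higher and Sp3 (-0.12) was lower, the last not called by DESeq2. Klf11, a TGF-β-inducible relative of Klf10, was 6.26, 6.46 and 7.19 CPM in control and 11.6, 14.3 and 12.7 CPM in knockdown libraries, without overlap. With JMJD1A(WT) or the mutant against LacZ, 0 of the 7 were called by edgeR or DESeq2 and 0 had an unadjusted p under 0.05 by edgeR, and with the mutant against JMJD1A(WT) Sp1 (-0.15) was lower. Of 18 cofactors and ubiquitin ligases of KLFs, 5 were lower on knockdown (Hdac2 at -0.37, Kat2b, Smurf1, Sin3b and Smurf2). Higher were 4, among them Siah1a at 0.32, Ctbp2 and Ep300, and both counts were near the shares over all genes. With JMJD1A(WT) against LacZ 0 were called by edgeR or DESeq2, and 1, Smurf2, had an unadjusted p under 0.05. With the mutant, Smurf2, a ligase for Klf5, was lower than with JMJD1A(WT) (-0.32) and than with LacZ (-0.18), and Sin3b, Hdac3 and Fbxw7 were higher than with JMJD1A(WT). Of these cofactor calls, DESeq2 lost those of Ctbp2 and Smurf2 on knockdown and of Hdac3 with the mutant.

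The genes whose pattern was most like that of Klf4, the member with the smallest adjusted p among those higher on knockdown, were Arf6, Wls and P4ha1. Pearson's r was 0.97, 0.97 and 0.96 over the 15 libraries, on log2 CPM centred within each set, among 10224 genes averaging 5 CPM or more. The points share their group means and library sizes, so this is a description. Klf15 was below that level and was not ranked.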

How the data were processed

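RNA-seq counts per gene of 15 libraries were analysed. Per the labels and methods, the authors used fastp, then HISAT2 on mm9, then featureCounts, and deposited raw counts by Entrez Gene number without normalization. The library kit is a directional one in the methods, while the labels give another version. Symbols and promoters came from RefSeq (GRCm38.p6), coordinates from GENCODE M1 (mm9).

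Counts were filtered with filterByExpr (minimum count 10), normalised by TMM and tested with the quasi-likelihood test of edgeR 4.0.16 in R 4.3.3 (bias-adjusted deviances, robust), with the knockdown and rescue sets fitted apart and no block. The script was tested on simulated data. The 10 genes and all gene lists were chosen with earlier results of these data known. Named were the 10 genes, Kdm3a, genes of the lists and the 3 nearest patterns. The values of 1 listed cofactor gene are not reported here. Replicate pairs differed by more than sampling noise (chi-square per degree of freedom 2.07 to 5.44). Alternatives were RLE, DESeq2 1.42.0, other filters, sample sets, methods and thresholds, a replicate block and each library left out.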

Additional observations from a re-analysis of the deposited data

How the results depend on the processing

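All 7 calls on knockdown, and those of Klf4 in both WT comparisons, held under every alternative and leave-out that could be run. A filter of 10 counts in every library removed Klf15, so that the numbers lower on knockdown, higher in the rescue and lower with the mutant against JMJD1A(WT) came to 0 by construction. DESeq2 and a threshold of 0.01 each left 1 gene lower and 0 higher in the rescue and 1 higher with the mutant against JMJD1A(WT). For DESeq2 the cause was not tested. RLE, no filter, all 15 libraries, only the 2 groups compared and the legacy method changed no call. With 1 library left out, the rescue gave 1 to 3 lower and 0 to 1 higher genes, the mutant against JMJD1A(WT) 1 to 3 higher, and the mutant against LacZ 0 to 1 lower. No call reversed, and sign changes were seen only in values that were not called.

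In the knockdown set, deviations of same-numbered libraries correlated at -0.04 to 0.03 and those of differently numbered ones at -0.04 to 0.06. In the rescue set the ranges were -0.01 to 0.05 and -0.06 to 0.02, so same-numbered libraries there tended to be slightly more alike. All of these correlations were small. With the replicate number as a block the numbers of members called stayed at 1 lower and 6 higher on knockdown, 3 and 1 in the rescue, 1 and 2 with the mutant against JMJD1A(WT) and 0 and 0 against LacZ, and no member's call changed. Over all genes the block gave 5425, 1393, 3283 and 1413 calls, against 5672, 1193, 2985 and 1160 without it. Depth limits Klf15 and Klf7 most, at 2 to 50 and 21 to 99 counts per library.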
